A study of Mus musculus with 19 samples.

Results

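The comparison set all irradiated abdominal aortas, whichever day they were irradiated, against aortas that had not been irradiated. The irradiated samples were 14 of the 19 RNA-seq libraries of the series, 7 of them irradiated early (D-3 IR) and 7 late (D+1 IR), and the other 5 were controls. Libraries are named by group and the sample number of the labels. D-3 IR mice received a single total-body X-ray dose of 1 Gy 3 days before an osmotic pump delivering angiotensin II (AngII) was implanted, and D+1 IR mice received the same dose 1 day after it. Control mice had the pump and no radiation, and per the methods they were given the same anesthetic. All mice were male Apoe-/-, on the C57Bl/6J background, and all received AngII, so no library stands for an aorta without AngII or with a working Apoe gene. Mice were infused at 8 to 10 weeks of age, and tissue was taken at day 7 for the tissue analyses, but the day is not named for RNA-seq in the sources used here. The reported genes are those that differed from control in the same direction at both irradiation times, with an unadjusted p below 0.05 at each. There were 59 such genes among 17617 tested. The study counts its RNA-seq groups in mice, so each library was taken as 1 mouse, although the labels do not say so.

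AngII infusion in hypercholesterolemic mice causes dissecting aneurysms of the abdominal aorta, with smooth muscle loss, broken elastic fibers and entry of neutrophils and monocytes into the wall. Ionizing radiation breaks DNA, which activates the transcription factor p53 and its targets for cell cycle arrest, repair and apoptosis. Neutrophils carry calprotectin (S100a8 and S100a9) and respond to Cxcr2 ligands such as Cxcl2, and lymphocytes are radiosensitive cells that reside in lymph nodes and in small numbers in the adventitia.

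The aortas expressed the markers of their wall in every library. The contractile genes of smooth muscle ranged from 697.8 to 15562 CPM (counts scaled to the normalized library total) for Acta2 in irradiated aortas and from 3159 to 18521 CPM in control aortas, from 176 to 4512 against 1302 to 5262 CPM for Myh11, from 107.8 to 2038 against 340.3 to 2381 CPM for Cnn1 and from 4.22 to 54.9 against 10.5 to 60.7 CPM for Tagln. Markers of endothelium (Pecam1, Cdh5), fibroblasts (Pdgfra, Dcn) and macrophages (Cd68, Adgre1) were detected in all 19 libraries. Apoe, the gene deleted in all mice, had 3.58 to 31.9 CPM in irradiated aortas and 8.40 to 25.4 CPM in control aortas, and these reads were not assigned to a part of the gene here. The depth was 25839001 to 97083681 counts in genes in irradiated libraries and 28758369 to 63767498 in control libraries. Reads from both strands were counted together, because the strands held equal shares (49.9% to 50.1% on the second strand), so overlapping and antisense genes cannot be told apart. The files of D+1 IR 1, 2 and 3 carried another series number than the 16 other files, and that difference cannot be told apart from the libraries themselves.

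No gene passed the test between irradiated and control aortas (edgeR's quasi-likelihood test, Benjamini-Hochberg adjustment over 17617 genes, 0.0% called). The smallest adjusted p was 0.0849, for 9530053A07Rik, and the next was 0.898, for Foxq1. At an unadjusted p below 0.05 there were 321 genes, of which 117 had higher values in irradiated aortas (0.664% of all tested) and 204 lower values (1.16%). DESeq2 and limma voom with sample weights also called no gene, with 432 and 407 genes at an unadjusted p below 0.05. The median log2 fold change of all genes was -0.05 for the pooled comparison, -0.03 for D-3 IR and -0.04 for D+1 IR. No gene had all 14 irradiated libraries on one side of all 5 control libraries (0.0%).

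At each irradiation time alone, 232 genes for D-3 IR and 1253 genes for D+1 IR had an unadjusted p below 0.05 against control, and none had an adjusted p below 0.05. The genes that met the unadjusted threshold at both times in one direction were 25 with higher values (0.142%) and 34 with lower values (0.193%), of which 56 in all were protein coding. Both contrasts use the same 5 control libraries, so a control library with an unusual value enters both, and a shared direction is not a repeat of the finding. For none of the 59 genes did D-3 IR and D+1 IR differ from each other at an unadjusted p below 0.05. Choosing genes by a shared direction largely set that outcome in advance, so it is no sign of agreement between the times. Foxq1 had the smallest p of the higher genes in the pooled comparison and 9530053A07Rik of the lower genes. All other genes named below had an adjusted p of 0.981 in the pooled comparison (edgeR), so none of the differences given here holds after adjustment.

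**Figure D1:**
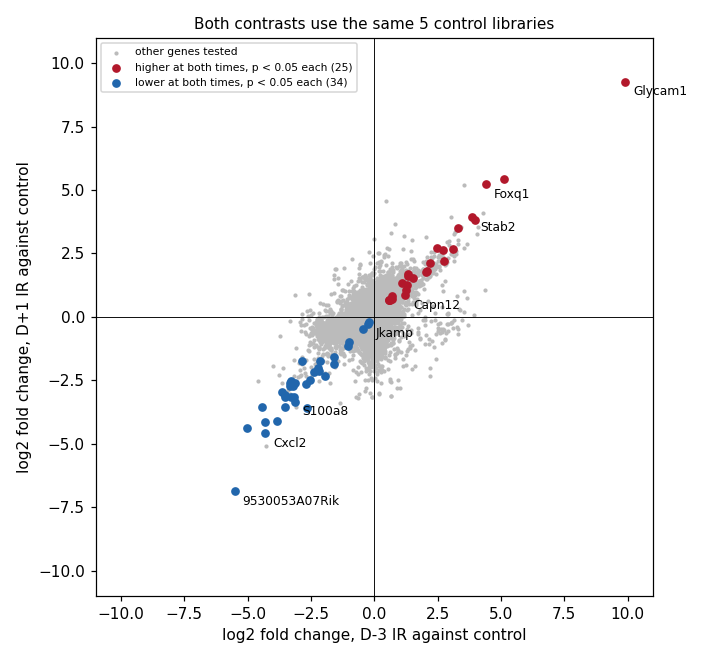
Log2 fold change of each gene in D-3 IR (x axis) and D+1 IR (y axis) against the same 5 control libraries, with the 25 genes higher at both times in red, the 34 lower at both times in blue and the other genes tested in gray. Glycam1 lies farthest out among the higher genes and 9530053A07Rik among the lower genes, while Capn12 and Jkamp lie close to the origin.

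The 59 genes fell into sets that differed in which libraries carried them. Of the 34 lower genes, 28 had their highest value in control 9, where they stood 5.85 to 29.5 times above the next library. The other 6 were 9530053A07Rik, Jkamp, Cyb5r1, Ift57, Efna3 and Tgm4. Of the 25 higher genes, 16 had their highest value in D-3 IR 10 or D+1 IR 3, and for 12 of these both libraries were the top pair. The other 9 were Foxq1, Capn12, Mmrn2, 9930111J21Rik2, Tal1, Gstcd, Megf6, Adamts18 and the pseudogene Pdcd5-ps. The heat map of the 59 genes shows these sets as a dark column at control 9 and as dark cells at D-3 IR 10 and D+1 IR 3. Without control 9, 13 of the 59 genes still met the rule, without D-3 IR 10 and D+1 IR 3 together 26 did, and 8 met it in both fits: Foxq1, Capn12, Mmrn2, 9930111J21Rik2, Gstcd, Pdcd5-ps, Jkamp and 9530053A07Rik. With D-3 IR 10, D+1 IR 3 and control 9 all left out of 1 fit, 9 of the 59 met the rule, and Capn12 and Mmrn2 did not. Without controls 6 and 9, 5 did: Foxq1, 9930111J21Rik2, Gstcd, Pdcd5-ps and Jkamp.

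**Figure D2:**
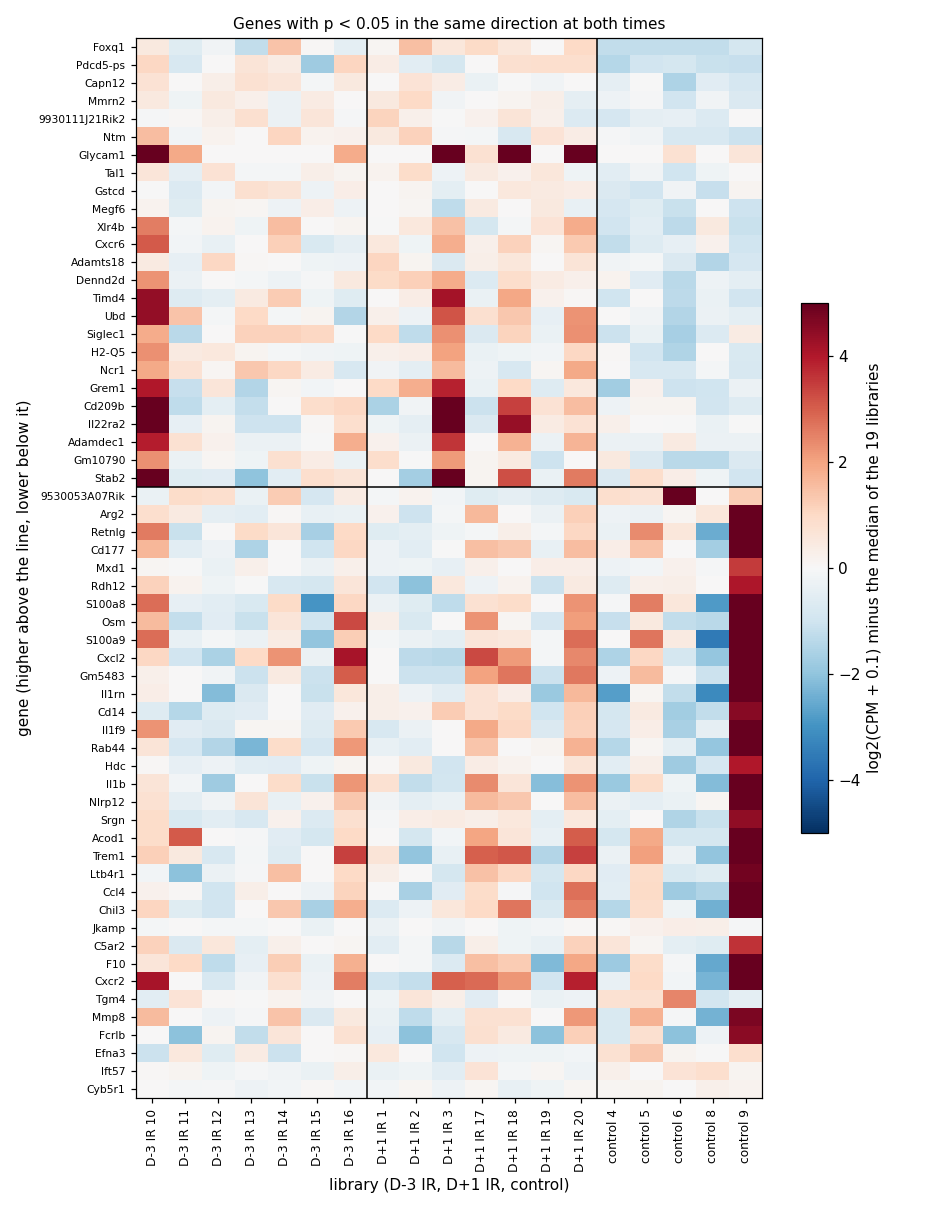
Heat map of the 59 genes (rows, higher genes above the line and lower genes below it) in the 19 libraries (columns, D-3 IR, D+1 IR, control), colored by log2 of CPM plus 0.1 minus the gene's median over libraries, with the color scale ending at 5 in both directions. Most lower genes are dark red in control 9, and 9530053A07Rik is in control 6, whereas Glycam1, Cd209b, Il22ra2 and Stab2 are dark red in D-3 IR 10 and D+1 IR 3.

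Foxq1, a forkhead transcription factor (ENSMUSG00000038415.11, chromosome 13 of GRCm38, 31556134 to 31560976), was close to absent from control aortas. It had 0, 0.106 and 0.516 CPM in D-3 IR aortas (lowest, median and highest of 7, as in all such values that follow) and 0.132, 0.246 and 0.553 CPM in D+1 IR aortas, against 0, 0, 0, 0 and 0.0265 CPM in control aortas (controls 4, 5, 6, 8 and 9, in this order throughout). Thus 13 of 14 irradiated libraries lay above the highest control, and D-3 IR 13 was at 0. These values rest on 169 reads in irradiated and 1 read in control libraries, a ratio of 46.8 with a 95% exact conditional interval of 8.29 to 1861 that covers counting error only. Foxq1 passed the filter for low counts through irradiated libraries alone, so the separation and the ratio describe these libraries and are no test. Its fitted difference, the log2 fold change, was 4.81 (standard error, SE, 0.98, adjusted p = 0.898 from edgeR), 4.41 for D-3 IR and 5.22 for D+1 IR. Over the alternatives its adjusted p ranged from 0.139 to 1, and it was tested in 28 of the 33 alternatives. With D+1 IR 2, D-3 IR 14 or D+1 IR 17 left out, the filter for low counts removed it before testing. Throughout, a fit from which a gene was removed in this way counts as one in which the gene did not meet the rule.

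Capn12, a calpain protease (chromosome 7, 28881422 to 28893563), was also higher at a low level. It had 0.552, 0.867 and 1.07 CPM in D-3 IR aortas and 0.45, 0.596 and 1.03 CPM in D+1 IR aortas (lowest, median, highest), against 0.405, 0.584, 0.136, 0.37 and 0.292 CPM in control aortas. All 14 irradiated libraries lay above the control median and 11 above the highest control. The difference of Capn12 was 1.05 as a log2 fold change (SE 0.31), 1.22 for D-3 IR and 0.87 for D+1 IR. Among the fits without 1 library, Capn12 met the rule in 18 of 19.

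Mmrn2 and Tal1 are both genes of endothelium, the first coding for multimerin 2, a matrix protein deposited by endothelial cells, and the second for a transcription factor of blood and endothelial development. Mmrn2 (chromosome 14, 34375465 to 34404287) had 49.9, 72.3 and 85.4 CPM in D-3 IR aortas and 44.3, 67.7 and 121 CPM in D+1 IR aortas, against 50.9, 57.9, 31.4, 53.4 and 37.2 CPM in control aortas. The log2 fold change of Mmrn2 was 0.63 (SE 0.21), with 10 of 14 irradiated libraries above the highest control. Tal1 (chromosome 4, 115056426 to 115071755) had 3.73, 5.64 and 8.60 CPM in D-3 IR aortas and 4.32, 6.01 and 9.80 CPM in D+1 IR aortas, against 3.54, 4.54, 2.54, 4.38 and 5.12 CPM in control aortas. For Tal1 it was 0.62 (SE 0.23), with 9 of 14 irradiated libraries above the highest control. For both genes control 6 was the lowest control, and without it neither met the rule. Mmrn2 met it in the 18 other single-library fits and Tal1 in 13 of 19, with losses also without control 4 or 8 and without D-3 IR 10, 12 or 15. In the whole list of endothelial genes, 21 of 23 members had positive log2 fold changes, the median was 0.42 and no member was at an unadjusted p below 0.05. Their summed level was 1449 to 3185 CPM in irradiated aortas and 1019 to 1892 CPM in control aortas, lowest in control 6. More endothelial cells and more RNA of these genes per cell cannot be told apart in whole aortas.

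The other higher genes of this set included 9930111J21Rik2, Gstcd, Megf6 and Adamts18, all at moderate or low levels. 9930111J21Rik2 (chromosome 11, 49015874 to 49051242), a RIKEN gene model, had 3.83, 4.97 and 8.22 CPM in D-3 IR aortas and 2.89, 5.66 and 10.2 CPM in D+1 IR aortas, against 2.62, 3.42, 3.50, 2.93 and 4.72 CPM in control aortas. The log2 fold change was 0.75 (SE 0.25), and reads of near-identical neighboring gene models may be shared with it. It met the rule under all 13 alternatives other than single-library fits, and in 18 of 19 of those. Gstcd, a glutathione S-transferase domain protein, had a log2 fold change of 0.69 (SE 0.26), with 14 of 14 irradiated libraries above the control median and 6 above the highest control. Megf6, a protein with epidermal growth factor-like repeats, had 0.65 (SE 0.25) and Adamts18, a secreted metalloproteinase, 1.45 (SE 0.56). The rule was met in 13 of 19 single-library fits by Gstcd and Adamts18 and in 11 by Megf6, and neither Megf6 nor Adamts18 met it without control 9. Ntm, a neuronal cell adhesion molecule, had 1.16 (SE 0.39) and its highest value in D-3 IR 10. Pdcd5-ps met the rule in all 19 single-library fits, with 0.564, 2.89 and 4.63 CPM in D-3 IR aortas and 1.14, 2.81 and 3.95 CPM in D+1 IR aortas, against 0.737, 1.06, 1.13, 0.956 and 0.928 CPM in control aortas. The log2 fold change was 1.52 (SE 0.42). It is a pseudogene, its reads may be shared with its parent gene, and it was chosen after its values were seen.

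**Figure D3:**
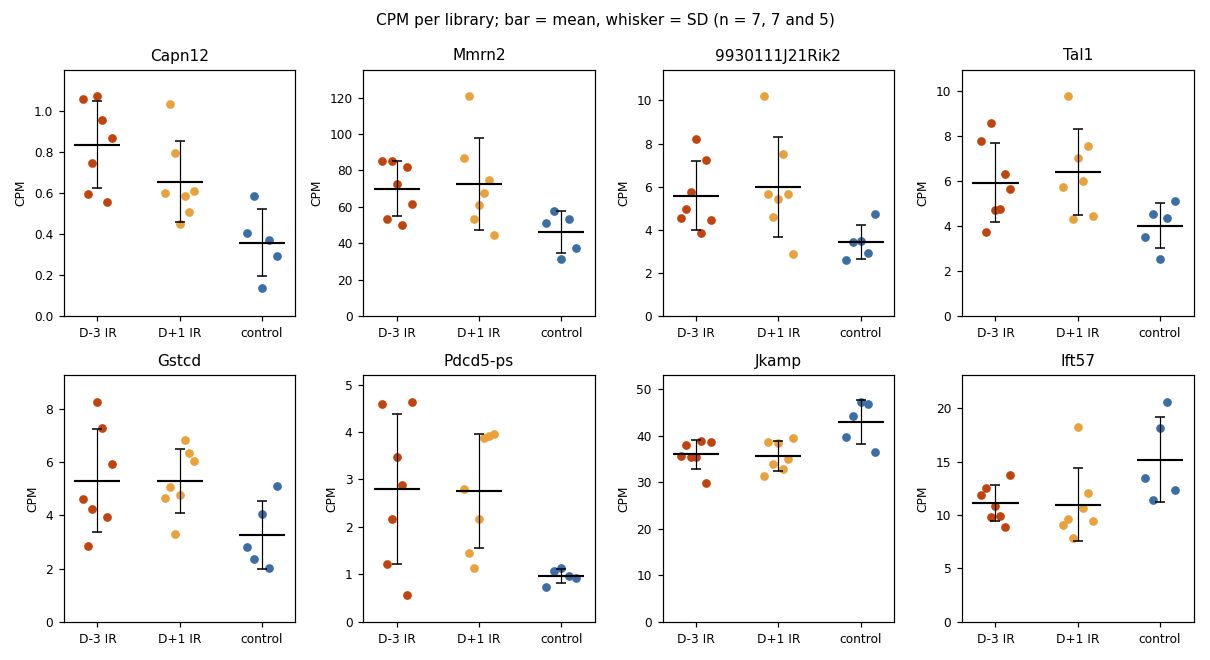
CPM of 8 of the 59 genes in each library (points) of D-3 IR (n = 7), D+1 IR (n = 7) and control (n = 5), with the mean as a bar and the SD as whiskers. In the first 6 panels most irradiated libraries sit above the control mean, and for Jkamp and Ift57 most sit below it, with overlap between groups in every panel.

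Among the lower genes whose highest value lay outside control 9, Jkamp, Cyb5r1 and Ift57 differed by small amounts. Jkamp, which codes for a membrane protein that binds the kinase JNK1 (chromosome 12, 72085589 to 72101461), had 29.9, 35.7 and 38.9 CPM in D-3 IR aortas and 31.2, 34.9 and 39.5 CPM in D+1 IR aortas, against 39.6, 44.3, 47.2, 46.8 and 36.5 CPM in control aortas. All 14 irradiated libraries lay below the control median and 8 below the lowest control, control 9. Jkamp had a log2 fold change of -0.26 (SE 0.09), -0.25 for D-3 IR and -0.27 for D+1 IR. Cyb5r1, a cytochrome b5 reductase, had a log2 fold change of -0.22 (SE 0.09), with 14 of 14 irradiated libraries below the control median and 10 below the lowest control. The cilium transport gene Ift57 had -0.46 (SE 0.18), with 9 of 14 below the lowest control. The ephrin gene Efna3 had -0.98 (SE 0.37), with 14 of 14 below the control median. Tgm4 had 4.09 CPM in control 6, which was 3.35 times the next library, control 5. Jkamp met the rule in 16 of 19 single-library fits, Tgm4 in 13, Ift57 and Efna3 in 8 and Cyb5r1 in 4. All of these were named after their values were seen.

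Promoters were searched for motifs of p53, of E-box factors (CACGTG) and of serum response factor (the CArG box), and sequence is shown for Jkamp and Capn12, which met the rule in 16 and 18 of 19 single-library fits, and for Bbc3, the member of the p53 list with the smallest p. The windows span 250 bases before to 50 after the transcription start in RefSeq (GRCm38.p6) and are written 5′ to 3′, with matches to a p53 half-site or to CACGTG in capitals. Each of these motifs reads the same on both strands. The windows are chr12:72085589-72085888 for Jkamp, chr7:28881406-28881705 for Capn12 and chr7:16310181-16310480 for Bbc3, all on the plus strand. The gene positions given above come from GENCODE, whose starts for Jkamp and Capn12 lie at or near the beginning of these windows. By GENCODE, most of both windows thus lies within the gene.
Jkamp: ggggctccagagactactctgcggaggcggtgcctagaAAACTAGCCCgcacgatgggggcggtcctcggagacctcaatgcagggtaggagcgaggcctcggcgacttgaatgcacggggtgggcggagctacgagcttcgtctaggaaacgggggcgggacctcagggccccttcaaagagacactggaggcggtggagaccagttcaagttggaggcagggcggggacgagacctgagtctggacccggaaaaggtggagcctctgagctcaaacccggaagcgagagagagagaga
Capn12: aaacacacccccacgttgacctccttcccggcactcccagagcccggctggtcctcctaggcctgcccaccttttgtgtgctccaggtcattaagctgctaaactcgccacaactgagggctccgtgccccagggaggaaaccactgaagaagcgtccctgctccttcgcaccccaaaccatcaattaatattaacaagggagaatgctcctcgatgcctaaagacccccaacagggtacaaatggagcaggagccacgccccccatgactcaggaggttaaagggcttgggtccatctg
Bbc3: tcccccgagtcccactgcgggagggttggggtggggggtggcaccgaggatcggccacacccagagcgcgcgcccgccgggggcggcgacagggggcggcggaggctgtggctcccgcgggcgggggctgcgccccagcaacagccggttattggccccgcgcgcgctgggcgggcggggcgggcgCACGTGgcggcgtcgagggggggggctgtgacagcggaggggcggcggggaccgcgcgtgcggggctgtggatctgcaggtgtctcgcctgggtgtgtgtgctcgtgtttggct
The Jkamp window held 1 p53 half-site, the Capn12 window none of the motifs and the third of the 3 Bbc3 windows 1 CACGTG, with no match in its other windows, which are not shown. Of all 32851 windows, 8.36% held a p53 half-site, 7.15% held CACGTG and 1.63% held a CArG box. Among the 59 genes, 46 had windows, and 5 of their 57 windows (8.77%) held a p53 half-site, 1 held CACGTG and none a CArG box. For the p53 list 10 of 36 windows (27.8%) held the half-site. A match describes letters in a window and is not a measure of binding.

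Of the 28 lower genes that were highest in control 9, 6 were on the neutrophil list, 4 on the list of chemokines and cytokines and 2 on the macrophage list, and 15 were on no list. S100a8, a subunit of calprotectin (chromosome 3, 90668978 to 90670035), had 0.447, 3.13 and 29.2 CPM in D-3 IR aortas and 1.66, 4.16 and 20.1 CPM in D+1 IR aortas, against 3.98, 25.3, 6.29, 0.493 and 306 CPM in control aortas. Its partner S100a9 had 1.21, 4.71 and 35.1 CPM in D-3 IR aortas and 3.52, 4.69 and 35.2 CPM in D+1 IR aortas, against 5.01, 32.7, 6.89, 0.339 and 387 CPM in control aortas. The last value is that of control 9, and the 4 other controls lay within the range of the irradiated libraries or below it for both genes. Log2 fold changes were -3.24 (SE 0.91) and -3.17 (SE 0.91).

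The same libraries were high for secreted and surface proteins of myeloid cells. The chemokine gene Cxcl2 had 0.106, 1.15 and 10.6 CPM in D-3 IR aortas and 0.138, 0.52 and 6.02 CPM in D+1 IR aortas, against 0.111, 1.17, 0.239, 0.0616 and 228 CPM in control aortas. The log2 fold change of -4.45 (SE 1.28) became 2.40 without control 9. Osm, the cytokine oncostatin M, had a log2 fold change of -3.97 (SE 1.1), and 1.91 without control 9. The interleukin 1 genes had -3.30 (SE 1.00) for Il1b, and 1.18 without control 9, and -3.01 (SE 0.88) for the receptor antagonist gene Il1rn, and 1.32 without it. Trem1, an activating receptor of myeloid cells, had -4.0 (SE 1.25), and 1.26 without control 9, and the chemokine receptor gene Cxcr2 had -3.33 (SE 1.19), and 2.38 without it. Log2 fold changes of -3.13 (SE 0.83) for Retnlg, a resistin-like protein of granulocytes, -2.98 (SE 0.81) for the neutrophil glycoprotein gene Cd177 and -2.14 (SE 0.60) for the retinol dehydrogenase gene Rdh12 were found in the same comparison. Arg2, the mitochondrial arginase, had -3.31 (SE 0.81), the repressor gene Mxd1 -1.59 (SE 0.44) and Gm5483 -4.69 (SE 1.36). Of the 28 lower genes that were highest in control 9, 24 had a positive log2 fold change without that library and 4 a negative one.

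The neutrophil list, 18 of 19 genes measured, had a median log2 fold change of -2.13, with 11 members lower at an unadjusted p below 0.05 (1.16% of all genes) and none higher. Its summed level was 28.2 to 340 CPM in irradiated aortas (median 63.4) and 40.9 to 1818 CPM in control aortas (median 62.2), so the medians were close and control 9 held the extreme value. Neutrophil genes were present in several irradiated libraries too, with sums of 256 CPM for D-3 IR 10, 182 CPM for D+1 IR 18 and 340 CPM for D+1 IR 20. Without D-3 IR 10, D+1 IR 3 and control 9 the median was 0.35, with 2 members lower (1.68% of all genes) and none higher. Chemokine and cytokine genes summed to 4042.5 CPM in control 9 and 374 to 728 CPM in the other controls. Their median was -0.63, with 3 of 31 higher and 6 lower at an unadjusted p below 0.05 (0.664% and 1.16% of all genes). Without D-3 IR 10, D+1 IR 3 and control 9 the median was 1.11, with positive values for 30 of 31 genes. For metalloproteinases and their inhibitors it was -0.24 (3 of 25 lower), 0.09 without control 9 and 0.21 without all 3 libraries, with a log2 fold change of -2.01 (SE 0.76) for the gelatinase gene Mmp9, which became 0.75 without control 9.

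9530053A07Rik, the gene with the smallest p, rested on a different control library. It had 0.0235, 0.2 and 0.439 CPM in D-3 IR aortas and 0.0304, 0.0616 and 0.151 CPM in D+1 IR aortas, against 0.295, 0.265, 46.2, 0.123 and 0.424 CPM in control aortas. The 46.2 CPM were measured in control 6, and the 4 other controls were below 0.439 CPM, the highest irradiated value. The log2 fold change was -6.19 (SE 0.97), and -0.78 without control 6, with an adjusted p of 1 from edgeR. It was the gene called by edgeR's newer quasi-likelihood form and in the fits without control 4, 5, 8 or 9, in which control 6 remained, and its adjusted p ranged from 0.00157 to 1 over the alternatives.

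Of the 16 higher genes that were highest in D-3 IR 10 or D+1 IR 3, 4 were on a list of lymph node genes that was chosen after the data were seen, 1 was on the list of natural killer and cytotoxic genes, 1 on the macrophage list and 10 on no list. Glycam1, the mucin that presents L-selectin ligands on high endothelial venules (chromosome 15, 103562759 to 103565081), had 214 CPM in D-3 IR 10 and at most 0.27 CPM in the 6 other D-3 IR libraries. In D+1 IR aortas it had 116 CPM in library 3, 16.9 in library 18, 6.36 in library 20 and at most 0.071 CPM in the 4 others, against 0, 0, 0.0682, 0 and 0.053 CPM in control aortas. These were 12623 reads in irradiated and 6 in control libraries, with a log2 fold change of 9.59 (SE 3.61), with 7 of 14 irradiated libraries above the highest control and the other 7 at 0. Cd209b, a lectin of sinus and marginal zone macrophages, had its highest values in D-3 IR 10 (187 CPM), D+1 IR 3 (181 CPM) and D+1 IR 18 (39.8 CPM), against 1.85 to 4.02 CPM in control aortas, and 4 irradiated libraries were below the lowest control. For Cd209b the log2 fold change was 3.40 (SE 1.44). Stab2, a hyaluronan receptor of sinusoidal endothelium, had 3.90 (SE 1.77), the interleukin 22 binding protein gene Il22ra2 5.28 (SE 2.26) and the macrophage receptor gene Timd4 2.68 (SE 1.04). Of the genes Cd209b, Stab2, Il22ra2 and Timd4, D-3 IR 10 and D+1 IR 3 were the top pair of libraries for each. Without both, the log2 fold change was 1.08 for Cd209b, 1.06 for Timd4 and 0.86 for Stab2. In the single-library fits the rule was met 14 times of 19 by Timd4, 12 by Cd209b, 10 by Stab2, 6 by Glycam1 and 1 by Il22ra2. Fits from which the low-count filter removed the gene are counted here as not met. Il22ra2 was tested in 16 and Glycam1 in 17 of the 33 alternatives, Stab2 in 32, and Timd4 and Cd209b in all 33. Glycam1 and Il22ra2 passed the filter through irradiated libraries alone.

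Siglec1, the sialoadhesin of tissue macrophages, was high in libraries of both irradiation times beside D-3 IR 10 and D+1 IR 3. It had 3.24, 17.6 and 31.3 CPM in D-3 IR aortas and 3.47, 17.3 and 42.4 CPM in D+1 IR aortas, against 3.94, 6.69, 2.66, 5.27 and 11.5 CPM in control aortas, with 8 of 14 irradiated libraries above the highest control. Its log2 fold change was 1.51 (SE 0.60). It met the rule in 9 of 19 single-library fits and with D-3 IR 10, D+1 IR 3 and control 9 left out, but not with D-3 IR 10 left out alone or with D+1 IR 3. Cxcr6, a chemokine receptor of T and natural killer cells, had 1.90 (SE 0.74), the activating natural killer receptor gene Ncr1 2.89 (SE 1.15) on 117 reads in irradiated and 4 in control libraries, and Xlr4b, an X-linked lymphocyte-regulated gene, 1.96 (SE 0.75). These met the rule in 11, 4 and 12 of 19 single-library fits. Ncr1 was tested in 17 of the 33 alternatives, because the low-count filter removed it from the others, and Cxcr6 and Xlr4b were tested in 32. In the main fit Ncr1 passed that filter through irradiated libraries alone. Cd209b, Stab2, Il22ra2 and Siglec1 were named after their values were seen.

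Marker lists of lymphocytes and lymph nodes were highest in the same libraries. The T cell list had a median log2 fold change of 2.15, with positive values for 25 of 25 genes and 3 at an unadjusted p below 0.05 (0.664% of all genes), among them Cd4 at 2.54 (SE 1.13). Its summed level was 572 CPM in D-3 IR 10, 338 CPM in D+1 IR 3, 68.1 in D+1 IR 18 and 62.1 in D+1 IR 20, and 11.0 to 27.9 CPM in the 10 other irradiated libraries, against 15.7 to 28.3 CPM in control aortas. The list of B and plasma cells had a median of 2.51 (2 of 24 higher, among them the B cell scaffold gene Bank1 at 1.77, standard error 0.76), and that of natural killer and cytotoxic genes 1.89 (6 of 15 higher). Of the 21 listed natural killer and cytotoxic genes, only these 15 were measured. A list of 11 measured genes of lymph node sinuses, stroma and high endothelial venules, chosen after the data were seen, summed to 1168 CPM in D-3 IR 10, 796 in D+1 IR 3, 213 in D+1 IR 18 and 138.5 in D+1 IR 20, and 15.9 to 68.9 CPM in the 10 other irradiated libraries, against 21.7 to 48.0 CPM in control aortas. Without D-3 IR 10, D+1 IR 3 and control 9, the medians were 0.24 for T cells, 0.01 for B and plasma cells and 0.90 for natural killer and cytotoxic genes, with no member of any of the 3 lists at an unadjusted p below 0.05. That fit measured fewer genes, 24 of the T cell list and 13 of the natural killer and cytotoxic list. In the same fit the lymph node list had a median of 0.81 (3.40 with all libraries), with 9 of 10 genes positive and 1, Siglec1, higher at an unadjusted p below 0.05 (1.37% of all genes). D-3 IR 10 and D+1 IR 3 belong to different irradiation times, so each irradiated group held 1 of the 2 libraries with the highest sums. D+1 IR 18 and D+1 IR 20 followed with lower sums that still lay above every control for the T cell and lymph node lists. The part of lymph node tissue in the difference was not tested.

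**Figure D4:**
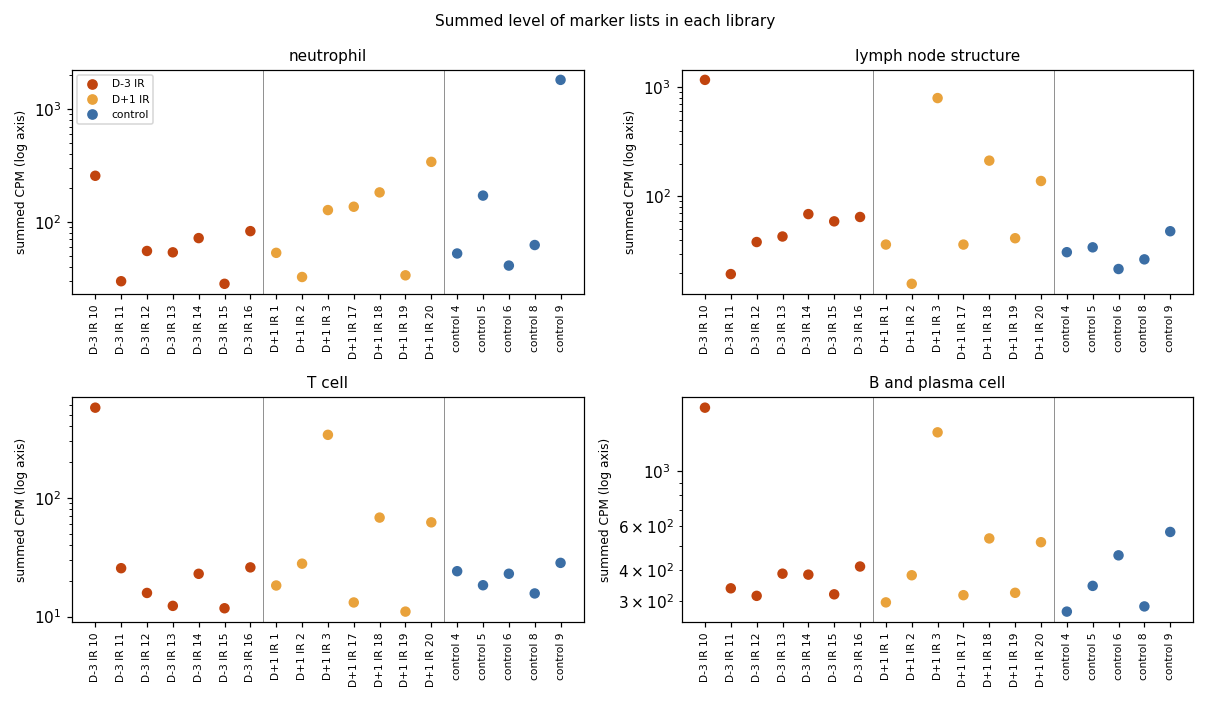
Summed CPM (log axes) of the neutrophil, lymph node, T cell, and B and plasma cell lists in each library, D-3 IR first, then D+1 IR, then control. Control 9 stands at 1818 CPM for neutrophil genes, and D-3 IR 10 and D+1 IR 3 stand at 1168 and 796 CPM for lymph node genes, apart from the other libraries.

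Genes of p53 and of DNA repair had medians near that of all genes (-0.05) when both times were pooled. The p53 target list had a median log2 fold change of -0.01 over 37 measured genes (18 positive), and its summed level was 1341 to 1734 CPM in irradiated aortas and 1270 to 1503 CPM in control aortas. Bbc3, the gene of the proapoptotic protein PUMA, was the 1 member at an unadjusted p below 0.05 (0.664% of all genes were higher at it). It had 9.06, 10.4 and 13.4 CPM in D-3 IR aortas and 10.3, 12.5 and 20.7 CPM in D+1 IR aortas, against 6.37, 11.9, 7.91, 8.48 and 9.17 CPM in control aortas, with 14 of 14 irradiated libraries above the control median. For Bbc3 the log2 fold change was 0.48 (SE 0.17), 0.28 for D-3 IR and 0.69 for D+1 IR. Genes for DNA damage sensing and repair had a median of 0.00 (21 of 40 positive, none at an unadjusted p below 0.05), senescence genes and CDK inhibitors 0.10 (7 of 14 positive) and cell division genes -0.22 (8 of 32 positive, 0.19 for D-3 IR and -0.60 for D+1 IR). Without control 9 the median was 0.28 for senescence genes and -0.01 for cell division genes, and with D-3 IR 10 and D+1 IR 3 left out as well 24 of 32 cell division genes were positive. Without D-3 IR 10, D+1 IR 3 and control 9, 4 of 37 p53 targets were higher (1.37% of all genes) and 1 was lower (1.68%) at an unadjusted p below 0.05. These were Eda2r, a death receptor of the TNF family, at 0.86, the stress sensor Sesn2 at 0.71, Bbc3 at 0.51 and Apaf1, with Sesn1 lower. With all libraries Eda2r had 0.39 (SE 0.32) and Sesn2 0.21 (SE 0.28). Some of the values left out ran opposite to a rise, and others did not. Eda2r had 6.97 CPM in control 9, its highest control, and 1.69 and 1.90 CPM in D-3 IR 10 and D+1 IR 3, its lowest irradiated libraries. Control 9 was the highest library of all for Sesn2 (30.4 CPM) and Apaf1 (26.3 CPM), but control 5 was the highest control for Bbc3. For Sesn2, D-3 IR 10 had 8.27 CPM, whereas D+1 IR 3 had 19.9 CPM, above every control except control 9. For Bbc3 these libraries had 10.7 and 12.5 CPM.

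The contractile and matrix genes of the aortic wall had medians of opposite sign at the irradiation times, and no gene differed between D-3 IR and D+1 IR after adjustment. The smooth muscle contractile list had a median log2 fold change of -0.38 (6 of 35 positive), made of 0.16 for D-3 IR and -0.91 for D+1 IR. The elastic fiber list had -0.21 (0.11 and -0.58), the collagens -0.20 (0.10 and -0.44) and the basement membrane list -0.10 (0.21 and -0.42), and none of their members was at an unadjusted p below 0.05. Without control 9 the pooled medians were -0.44 for smooth muscle, 0.02 for elastic fibers, -0.04 for collagens and -0.07 for the basement membrane. With D-3 IR 10 and D+1 IR 3 left out as well, they were -0.34, 0.10, 0.13 and 0.03 in the same order. With only D+1 IR 1, 2 and 3 left out, the libraries of the other file series, they were -0.17, -0.06, 0.01 and -0.0047. Interferon response genes had a median of 0.23, with 30 of 33 positive and none at an unadjusted p below 0.05, and macrophage genes 0.23. Of the macrophage genes 17 of 28 were positive, with 2 higher and 4 lower at an unadjusted p below 0.05 (0.664% and 1.16% of all genes). Without control 9 the macrophage median was 0.84, and with D-3 IR 10 and D+1 IR 3 left out as well it was 0.88, with 27 of 28 positive, 4 higher (1.37% of all genes) and none lower. These fits leave out the control with the most macrophage RNA. The list summed to 4904 CPM in control 9 and 444 to 1697 CPM in the other controls. D+1 IR 20, the highest irradiated library at 5638 CPM, stayed in both fits, and D-3 IR 10 had 2113 CPM. The circadian list had 0.15, and its member Usp2, a deubiquitinase, had 0.66 (SE 0.22), with 0.30 for D-3 IR and 1.01 for D+1 IR.

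Genes of tissues around the aorta varied widely between libraries of every group. White adipocyte genes had a median of 0.59 (19 of 19 positive), with a summed level of 10590 to 93850 CPM in irradiated aortas and 2356 to 78622 CPM in control aortas, and their member Car3, a carbonic anhydrase, had 1.09 (SE 0.51). Skeletal muscle genes ranged from 44.3 to 9519.5 CPM in irradiated aortas and from 60.3 to 1037 CPM in control aortas, and genes of sympathetic neurons and adrenal medulla from 30.4 to 8635 CPM against 155 to 10856 CPM. The sympathetic and adrenal list had a median of -1.13 (-1.77 without D-3 IR 10, D+1 IR 3 and control 9) with 0 of 19 positive, and none of its members was at an unadjusted p below 0.05. Schwann cell genes had a median of -0.33 with 0 of 11 positive. In the fit without D-3 IR 10, D+1 IR 3 and control 9, 8 of 11 Schwann cell genes were lower at an unadjusted p below 0.05 (1.68% of all genes) with a median of -1.27, among them the myelin gene Mbp. Mbp had 23.3, 59.9 and 595 CPM in D-3 IR aortas and 40.8, 82.2 and 141 CPM in D+1 IR aortas, against 179, 128, 167, 145 and 38.7 CPM in control aortas, so that its highest library was D-3 IR 10 and its lowest control was control 9.

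**Figure D5:**
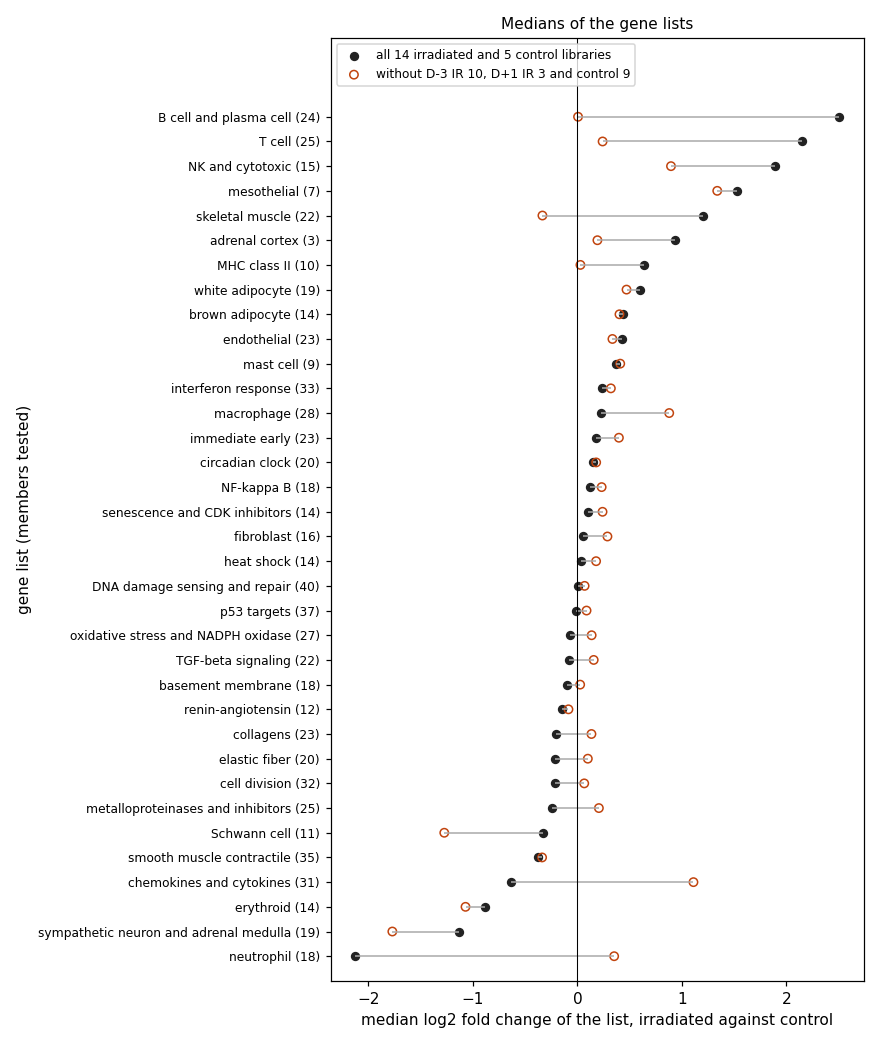
Median log2 fold change of 35 gene lists in irradiated against control aortas, with all libraries (filled) and without D-3 IR 10, D+1 IR 3 and control 9 (open); the number of members tested stands in parentheses. The medians of lymphocyte lists drop toward 0 and that of the neutrophil list moves from -2.13 to 0.35, while those of white and brown adipocytes, endothelium and smooth muscle move little.

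The counts of 25 and 34 genes depended on single libraries. The higher genes numbered 10 without D-3 IR 10, 13 without D+1 IR 3, 13 without control 6 and 16 without D+1 IR 18, and 49 without control 9, 43 without control 4, 39 without D-3 IR 13 and 38 without control 5. The lower genes numbered 18 without control 9 and 22 without D-3 IR 13, and 70 without control 4, 68 without control 5, 58 without D+1 IR 17, 55 without control 8 and 52 without D+1 IR 20. Within the 16 libraries that share a file series number, 10 genes were higher and 3 lower, of which 10 were among the 59, including 9930111J21Rik2, Gstcd, Megf6, Tal1, Adamts18, Siglec1 and Pdcd5-ps. The fit with limma voom shared 7 genes with the 59: Foxq1, Mmrn2, 9930111J21Rik2, Megf6, H2-Q5, Jkamp and Cyb5r1.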

How the data were processed

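RNA-seq of abdominal aortas was deposited for 19 libraries. Per the methods, the authors made poly(A) libraries with a stranded kit, sequenced them on a NovaSeq and checked them with FastQC, and STAR 2.7.9a wrote the deposited read counts per gene against Ensembl GRCm38, with no normalization. The unstranded count column was used. Groups came from the sample labels, and no column was left unmapped. Gene names came from GENCODE for GRCm38.

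The fit used edgeR 4.0.16 (R 4.3.3) after filterByExpr, with scaling by TMM, a design without intercept and legacy quasi-likelihood F-tests (two-sided). The pooled contrast was the mean of both irradiated groups minus control, and p-values were adjusted by Benjamini-Hochberg. CPM are TMM-scaled. DESeq2 1.42.0 and limma 3.58.1 were alternatives, as were other scalings, filters and left-out libraries. The test was checked on simulated data. Named genes were the 12 higher and 12 lower protein-coding genes with the smallest pooled p among those meeting the rule, up to 4 members per list, and genes stated as chosen after their values were seen. Members and lists were chosen with earlier results of these data known.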

Additional observations from a re-analysis of the deposited data

Results flagged for a closer look

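Within each group, the 29 named genes were searched for a library far from the others of its group on the log2 scale (Dixon's test at 95%), in 87 groups. Chance would flag about 1 in 20 groups if the genes were independent and chosen without these data. Most were named for their p in the same libraries, so that rate is no yardstick for the 8 flags found. Control 9 stood apart in 5 of them, with 166 CPM for Mxd1, 111 CPM for Osm, 26.7 CPM for Rdh12, 9.57 CPM for Arg2 and 0.0265 CPM for Foxq1, whose other controls were at 0. Control 6 stood apart for 9530053A07Rik (46.2 CPM), D-3 IR 10 for Glycam1 (214 CPM) and D+1 IR 20, which had the highest neutrophil sum of the irradiated libraries, for S100a9 (35.2 CPM).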

How the results depend on the processing

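The pooled comparison called 0 genes in every alternative run on all libraries except 1 gene with edgeR's newer quasi-likelihood form, and 0 to 1 in the fits without 1 library. Genes meeting the rule at both times numbered 10 to 49 higher and 18 to 70 lower without 1 library. The count was 172 higher and 347 lower with no filter beyond 1 count, 12 and 21 with a CPM of 1 in 5 libraries, 64 and 17 with DESeq2, and 10 and 3 within 1 file series, where 0 were called. It was 16 higher and 28 lower with limma voom, and 32 higher and 52 lower with the newer form. Left-out sets were chosen after seeing the data. Without D-3 IR 10 and D+1 IR 3 the higher genes numbered 9, without these and control 9 they numbered 53, without controls 6 and 9 they numbered 40 (19 lower), and without all 4 libraries 58. Most of these were other genes: of the 25 higher genes, 8, 6, 4 and 4 were among them, and of the 59 in all, 26, 9, 5 and 5 met the rule. Genes whose groups did not overlap numbered 0 to 6 without 1 library, and 9, 17 and 32 in the last 3 sets. These sets hold fewer samples, and other causes were not tested. The 2-group design gave no count at both times. No paired analysis was possible because replicate numbers are not shared between groups.

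Signs turned for genes high in control 9. Without 1 library, log2 fold changes reached 0.29 for Arg2 (lowest -3.62), 0.12 for Cd177 (-3.30), 0.069 for Mxd1 (-1.83), 1.91 for Osm (-4.56), 2.40 for Cxcl2 (-5.07), 1.05 for Gm5483 (-5.54), 1.32 for Il1rn (-3.33), 1.18 for Il1b (-3.62), 1.26 for Trem1 (-4.66), 2.38 for Cxcr2 (-3.94) and 0.75 for Mmp9 (-2.34). Without control 9, D-3 IR 10 and D+1 IR 3 they were 0.091 for Mxd1, 1.93 for Osm, 2.56 for Cxcl2, 1.21 for Gm5483, 1.31 for Il1rn, 1.26 for Il1b, 1.36 for Trem1, 1.70 for Cxcr2 and 0.50 for Mmp9. Without controls 6 and 9 they were 0.30 for Arg2, 0.0018 for Cd177, 0.17 for Mxd1, 0.045 for Rdh12, 1.70 for Osm, 2.22 for Cxcl2, 0.85 for Gm5483, 1.29 for Il1rn, 1.21 for Il1b, 1.01 for Trem1, 2.34 for Cxcr2 and 0.59 for Mmp9. Without all 4 they were 0.20 for Arg2, 0.20 for Mxd1, 1.72 for Osm, 2.37 for Cxcl2, 1.01 for Gm5483, 1.29 for Il1rn, 1.29 for Il1b, 1.11 for Trem1, 1.67 for Cxcr2 and 0.34 for Mmp9. No scaling, filter, tool or left-out irradiated library turned the sign of a gene given with a log2 fold change.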
